A study of Mus musculus with 2 samples.

Results

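Iron-sulfur clusters are small groups of iron and sulfur atoms that many enzymes hold as cofactors, from the respiratory chain to DNA polymerases and helicases. They are built in mitochondria, where a cysteine desulfurase supplies sulfur, a scaffold protein holds the nascent cluster, and a glutaredoxin and carrier proteins pass it on. A separate cytosolic machinery depends on the mitochondrial one, assembles clusters for cytosolic and nuclear proteins, and hands them over through a targeting complex. The genes described here are 9 such factors, chosen by name: Iscu, Nfs1, Glrx5, Isca1 and Isca2 of the mitochondrial machinery, and Nubp1, Ciao1, Ciapin1 and Mms19 of the cytosolic machinery. All 9 were present among the 14366 genes of both deposited tables.

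The cells were mouse hematopoietic stem cells (HSC), sorted from the pooled marrow of 8 wild-type C57/B6 mice aged 6 to 8 weeks as lineage-negative cells carrying Sca-1, c-Kit and CD150 but lacking CD48. They were cultured for 48 h with stem cell factor (100 ng/ml), thrombopoietin (50 ng/ml) and Primocin (200 µg/ml), with either 10 µM of the iron chelator deferoxamine (DFO) or sterile water as vehicle. From each culture 20000 live cells entered droplet-based single-cell RNA sequencing, in which each captured transcript is tagged at its 3′ end and counted once as a molecule. There was 1 library per condition, from pooled animals, so the differences below compare 2 libraries, have no replicate check, and cannot be told apart from differences between cultures or library preparations.

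The vehicle library held 8708 cells and 260938938 molecules, and the DFO library 9852 cells and 284326017 molecules. The median cell had 27805.5 and 27114 molecules. The libraries shared 24 cell barcodes. After culture, 14 HSC marker genes, all found in the tables, summed to 361 CPM (molecules per 1000000 of a library) under vehicle and 391 CPM under DFO, while 14 of 15 megakaryocyte markers summed to 2117 and 1109 CPM. Of the other lists, 9 of 10 erythroid markers summed to 904 and 870 CPM, and 7 of 9 neutrophil-monocyte markers to 199 and 181 CPM. Mast cell or basophil markers summed to 10.6 and 7.03 CPM, with all 7 below a mean of 5 CPM. Of 7 lymphoid markers 2 were in the tables, at a sum of 8.67 and 8.78 CPM, while Dntt, Il7r, Cd3e, Ebf1 and Rag1 were not. Of the macrophage or dendritic list 2 of 5 markers were in the tables, at a sum of 7.49 and 8.28 CPM, and of the stromal or endothelial list 3 of 5, at 43.1 and 41.3 CPM. Tfrc, the transferrin receptor, whose mRNA is stabilised in iron-poor cells, lay at 57.8 CPM under vehicle and 67.7 CPM under DFO, a log2 difference of 0.23.

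On the mm10 genome (GENCODE M21), 6 of the 9 genes start within 1000 bases of a protein-coding gene that runs the other way, an arrangement held by 19.3% of the 8695 protein-coding gene entries tested here. The starts of Ciapin1 and Coq9 lie 37 bases apart, those of Ciao1 and Tmem127 92, of Isca2 and Npc2 99, of Nfs1 and Romo1 147, of Iscu and Sart3 238, and of Mms19 and Ubtd1 606. Glrx5 (chromosome 12, 105032688 to 105042906, plus strand, 2 exons in its principal transcript), Nubp1 (chromosome 16, 10411948 to 10424428, plus strand, 11 exons) and Isca1 (chromosome 13, 59755409 to 59769810, minus strand, 4 exons) have no such neighbour. The promoters of Glrx5 and Nubp1 are shown because Glrx5 was the most abundant member and higher in the DFO library, while Nubp1 was lower there, and because neither window holds an annotated exon. Each is the 250 bases before the RefSeq start on GRCm38.p6, the assembly behind mm10, with capitals marking CCAAT boxes (CCAAT, or ATTGG where the motif is on the other strand). The window of Glrx5 is chr12:105032368-105032617 and that of Nubp1 chr16:10411688-10411937, both on the plus strand.
Glrx5: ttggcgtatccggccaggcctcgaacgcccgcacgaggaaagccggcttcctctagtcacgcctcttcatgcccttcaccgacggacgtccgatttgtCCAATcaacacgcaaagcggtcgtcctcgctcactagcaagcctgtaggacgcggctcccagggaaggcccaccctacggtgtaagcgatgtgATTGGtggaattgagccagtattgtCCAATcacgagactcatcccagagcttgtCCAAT
Nubp1: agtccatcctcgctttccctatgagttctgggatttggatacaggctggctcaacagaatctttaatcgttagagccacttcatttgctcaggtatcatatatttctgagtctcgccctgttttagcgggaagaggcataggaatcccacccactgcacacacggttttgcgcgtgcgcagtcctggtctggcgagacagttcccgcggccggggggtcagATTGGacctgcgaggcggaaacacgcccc

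RefSeq promoter entries were matched for 8 of the 9 members. Glrx5 held 4 CCAAT boxes, at 152, 59, 34 and 5 bases before its start, a count of 4 or more that was found in 0.84% of all 32851 promoter entries of the same length. Nubp1 held 1, at 29 bases before its start. At least 1 CCAAT box was present in 5 of the 8 matched promoters (Glrx5, Isca1, Isca2, Nubp1 and Mms19) and in 33.8% of all entries. The ETS motif CCGGAAG, searched on both strands like the other motifs, was present in 4 of the 8 (Nfs1, Isca1, Isca2 and Ciao1) and in 6.91% of all entries. The E-box CACGTG was found only in that of Mms19 among the 8, and in 6.02% of all entries. No TATAAA was found in the 8 windows, against 12.4% of all entries. CpG dinucleotides numbered 21 in the Glrx5 window and 15 in that of Nubp1, against a median of 6 over all entries. The entries behind these shares were not matched to the members for CpG content or for expression in these cells. These matches describe letters in a window and were not tested for binding.

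The first question was how abundant the transcripts of the assembly genes are in these cells. Because a molecule is counted once whatever its length, levels of different genes are given as CPM without scaling to length. Glrx5, the mitochondrial glutaredoxin that relays clusters from the scaffold, lay at 248 CPM (246 to 250) under vehicle and 268 CPM (266 to 270) under DFO. Brackets hold exact 95% Poisson intervals, which cover counting error only and leave out variation between cells, cultures and library preparations. Glrx5 stood 2.94-fold above the next member in vehicle and 2.88-fold above it in DFO, and made up 39.1% and 40.3% of the summed molecules of the 9 genes. Iscu, the scaffold on which clusters form, lay at 84.3 CPM (83.2 to 85.5) under vehicle, and Ciapin1, an electron carrier of the cytosolic machinery, at 82.3 CPM (81.2 to 83.4), with overlapping intervals. In DFO their order turned, with Ciapin1 at 93 CPM (91.9 to 94.1) above Iscu at 86.5 CPM (85.4 to 87.6). These were the only neighbours in the order of 9 genes that changed places between the libraries.

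Nubp1, the nucleotide-binding scaffold of the cytosolic machinery, followed at 76.5 CPM (75.4 to 77.5) under vehicle and 71.9 CPM (70.9 to 72.9) under DFO. Nfs1, the cysteine desulfurase, lay at 53.3 CPM (52.4 to 54.2) and 56 CPM (55.1 to 56.9). The 2 mitochondrial carrier proteins differed in level from each other, with Isca2 at 37.7 CPM (37 to 38.5) and 35.7 CPM (35 to 36.4) and Isca1 at 14.5 CPM (14 to 14.9) and 14.4 CPM (14 to 14.9). Of the targeting complex that delivers clusters to recipient proteins, Ciao1 lay at 24.7 CPM (24.1 to 25.3) and 26.1 CPM (25.5 to 26.7). Mms19, a further part of that complex, was the lowest member, at 13.5 CPM (13.1 to 14) and 12.5 CPM (12 to 12.9). Apart from Iscu and Ciapin1 in vehicle, no neighbours in either order had overlapping intervals. Among the 8886 genes that averaged at least 5 CPM (the tested genes), Glrx5 stood above 93.3% and Mms19 above 24.3%.

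Isca1 and Iscu need care because of sequence shared with other genes. The last 500 bases of the Isca1 transcript match the gene AK157302 at 98.788% identity over 495 bases, and AK157302 itself lay at 0.142 and 0.148 CPM. Those of Iscu match Gm16437 at 99.213% over 127 bases. The annotated genes Gm49354 and Gm28036 overlap Isca1 and Nfs1 on the same strand. The sources used here do not say how such shared reads were treated, so the level of Isca1 in particular is uncertain. Mms19 overlaps Zdhhc16 (34.9 and 35.3 CPM) on the opposite strand by 3019 bases, and the sources do not say whether strand was used.

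**Figure D1:**
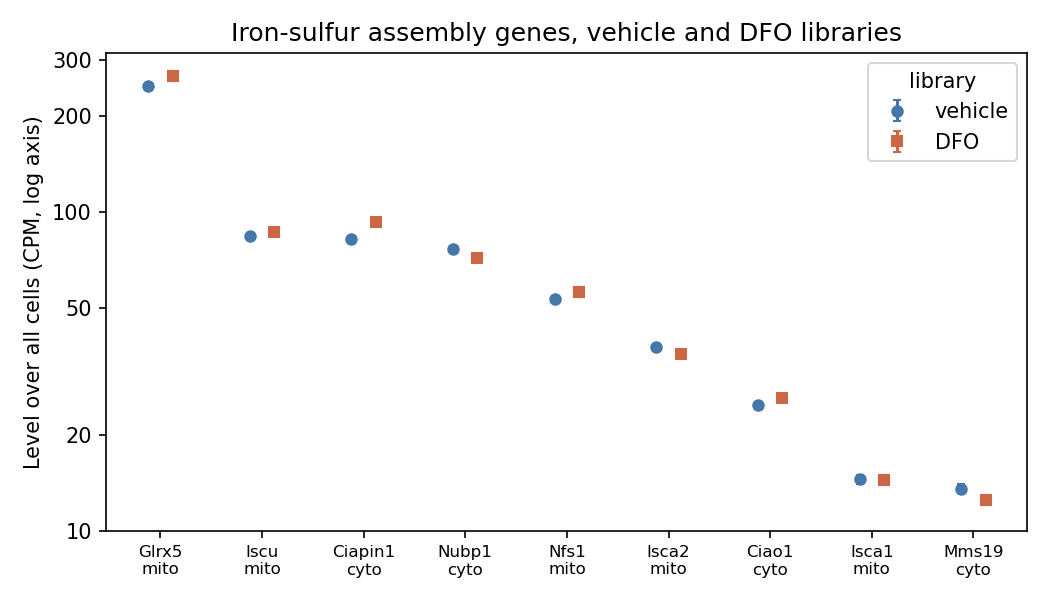
Level of each member over all cells (CPM, log axis) in the vehicle library (circles) and the DFO library (squares), ordered by the vehicle level, with exact 95% Poisson intervals that are mostly narrower than the symbols. Glrx5 stands at 248 and 268 CPM, and Mms19 at 13.5 and 12.5 CPM.

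The second question was whether iron chelation was accompanied by a different level of these transcripts. Differences are given as the log2 of DFO CPM + 1 over vehicle CPM + 1, and the interval beside it is the exact 95% counting interval of the log2 ratio without the added 1. No member reached an absolute difference of 0.25 (1.19-fold), a size reached by 3.97% of the 8886 tested genes. The largest difference belonged to Ciapin1, higher in DFO by 0.17 (0.15 to 0.20), and 89% of the tested genes had a smaller absolute difference. Glrx5 was higher by 0.11 (0.10 to 0.13). These were the 2 members higher by 0.1 (1.07-fold) or more, where 19.2% of all tested genes were. Mms19 was lower in DFO, at -0.11 (-0.19 to -0.053), and was the only member lower by that size, where 14% of all tested genes were. These counts depend on the scaling: with median-of-ratios scaling, or over a total without mitochondrially encoded and ribosomal protein genes, Glrx5 stood at 0.09, Nubp1 at -0.11 and Isca2 at -0.10.

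Between these extremes, Ciao1 differed by 0.075 (0.029 to 0.13), Nfs1 by 0.07 (0.038 to 0.10) and Iscu by 0.037 (0.011 to 0.063). Isca2 stood at -0.079 (-0.12 to -0.041) and Nubp1 at -0.087 (-0.12 to -0.06). The difference of Isca1 was -0.0036 (-0.068 to 0.06), so at this depth no direction was detectable, and 8 of 12 alternative computations kept its sign. In all, 5 of the 9 members were higher and 4 lower in DFO, with a median of 0.037, against 57.9% of all tested genes higher, 42.1% lower and a median of 0.019. The counting intervals of 7 of the 9 members did not overlap between the libraries, against 54.2% of all tested genes at this depth. Such intervals narrow with a gene's level, for which the genes were not matched. The members thus went in both directions within each machinery, and both the share higher and the sizes were near those of all genes.

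Summed, the 5 mitochondrial members gave 438 CPM (435 to 441) under vehicle and 461 CPM (458 to 463) under DFO, a difference of 0.072 (0.061 to 0.084). This sum rests on Glrx5, and without it the difference was 0.021. The 4 cytosolic members gave 197 CPM (195 to 199) and 203 CPM (202 to 205), a difference of 0.046 (0.029 to 0.063). Without Ciapin1 that sum was lower in DFO, at -0.054. Neither sum therefore describes its members as a group.

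**Figure D2:**
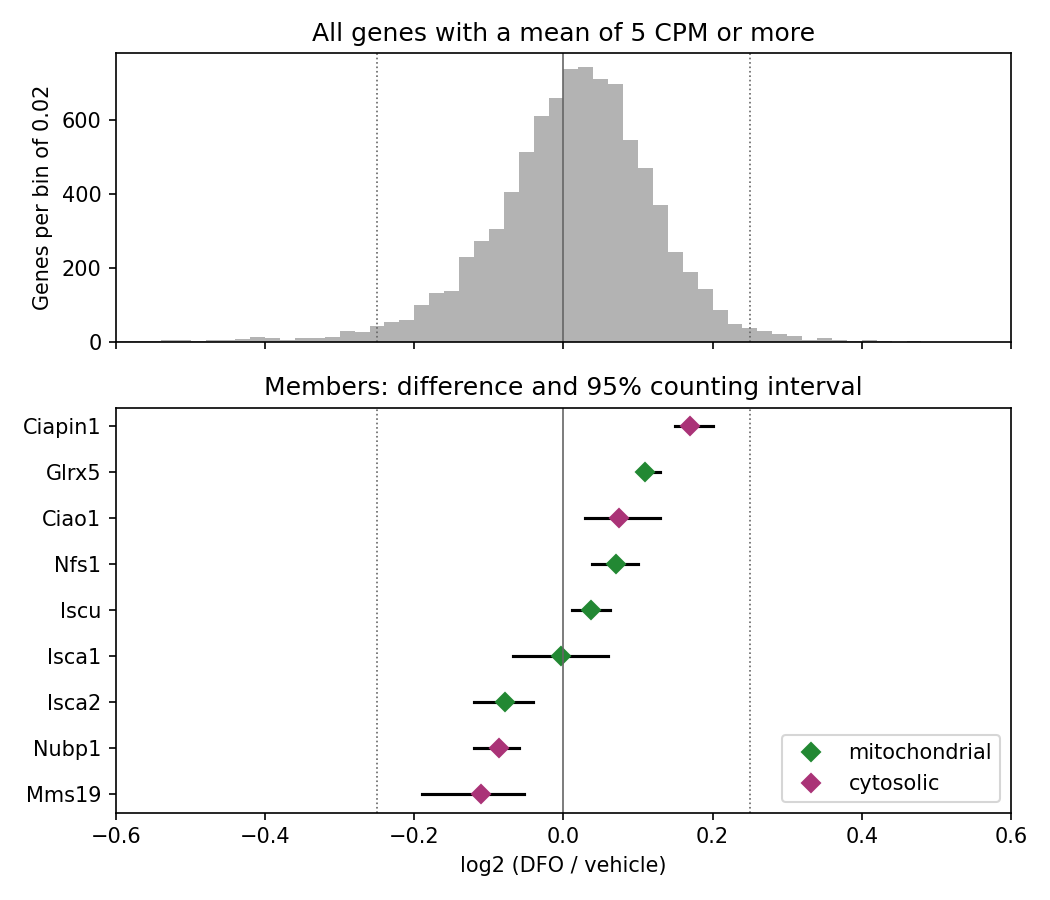
Top, number of genes per bin of 0.02 in log2 (DFO / vehicle) for all tested genes, the few beyond 0.6 in either direction lying outside the axis; bottom, the 9 members with their 95% counting intervals, on the same axis, with dotted lines at 0.25 in either direction. The members run from -0.11 for Mms19 to 0.17 for Ciapin1, within the bulk of all genes.

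Other genes of the same pathway were read in the same way. Of 22 further assembly genes found in the tables, 19 reached a mean of 5 CPM, of which 12 were higher and 7 lower in DFO, with a median of 0.032, and none reached 0.25. The highest were Hspa9 (0.15), the mitochondrial chaperone that helps release clusters from the scaffold, Nubp2 (0.11), the partner of Nubp1, and the ferredoxin gene Fdx1 (0.093). The lowest were Hscb (-0.15), the co-chaperone of Hspa9, and Fdxr (-0.084), the reductase that supplies electrons to ferredoxin. Hspa9 had 322 CPM (320 to 324) under vehicle and 358 CPM (356 to 360) under DFO, while Hscb had 50.1 CPM (49.3 to 51) and 45.2 CPM (44.4 to 46). The 2 chaperone genes thus differed in opposite directions, as the partners Nubp1 and Nubp2 did. Nubp2 lay at 56.6 CPM (55.7 to 57.5) under vehicle and 61.1 CPM (60.2 to 62) under DFO.

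Of 34 genes for proteins that carry iron-sulfur clusters, 32 reached a mean of 5 CPM, of which 22 were higher and 10 lower, with a median of 0.029 and none at 0.25. Dna2, a nuclease-helicase of DNA replication, and Dph2, an enzyme of diphthamide synthesis, both stood at 0.20, the highest values of the list. At the low end were Sdhb (-0.19), the iron-sulfur subunit of succinate dehydrogenase, and the complex I subunit genes Ndufs8 (-0.17) and Ndufs7 (-0.087). Dna2 had 36.9 CPM (36.1 to 37.6) under vehicle and 42.4 CPM (41.7 to 43.2) under DFO, and Sdhb 148 CPM (147 to 149) and 130 CPM (128 to 131). Other respiratory chain genes of the list lay nearer 0, with Ndufs1 at 0.037, Uqcrfs1 at 0.028, Ndufv2 at -0.017 and Ndufv1 at -0.026. The medians of both lists, 0.032 and 0.029, lay near that of all tested genes, 0.019.

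The third question was how the members vary with cell state. All cells of both libraries were clustered without the members, the other assembly genes and the client genes, and 8 clusters resulted. Of these, cluster 1 was HSC-like, having the marker Sult1a1 among its leading genes. Cluster 2 was megakaryocyte-like (Pf4, Cavin2, Treml1), cluster 4 erythroid-like (Klf1, Aqp1) and cluster 5 neutrophil-monocyte-like (Mpo, Ctsg). The erythroid markers had the same rounded mean log2 fold in clusters 2, 4 and 6. The erythroid-like name therefore rests on Klf1 and Aqp1 among the leading genes of cluster 4, and erythroid markers were not particular to it. No name was given to the rest: cluster 0 was led by mitosis genes such as Nusap1 and Ube2c, cluster 3 had Hist1h2bc and Dnajb9 among its leading genes, cluster 6 was led by Slc7a8 and Il1rl1, and cluster 7 by Rpgrip1. Cells of cluster 7 were shallow, with a median of 6938 molecules and a mitochondrial transcript share of 6.86%, against 20931 molecules or more in every other cluster. Megakaryocyte-like cells made up 18.6% of the vehicle library and 11.9% of the DFO library, and these shares depend on genes that differ between the libraries, 269 of the 2000 used.

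Glrx5 was the member whose level varied most between clusters once cluster 7 was set aside. It was lowest in the HSC-like cluster, at 179 CPM (174 to 184) under vehicle and 199 CPM (194 to 204) under DFO. It was highest in the megakaryocyte-like cluster, at 315 CPM (310 to 319) and 332 CPM (327 to 338), a range of 1.76-fold in vehicle and 1.67-fold in DFO. The other 5 clusters lay between 233 and 243 CPM under vehicle and between 261 and 274 CPM under DFO. The range of Glrx5 over the 7 clusters, 0.81 in log2 in vehicle, exceeded that of 77.1% of tested genes, whose median span was 0.50.

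Ciapin1 was highest in the neutrophil-monocyte-like cluster, at 103 CPM (98.5 to 107) under vehicle and 112 CPM (109 to 115) under DFO. In the HSC-like cluster it lay at 69.4 CPM (66.5 to 72.4) and 77.8 CPM (74.6 to 81.1), near the 70.5 and 78.5 CPM of cluster 3. The electron carrier gene and Glrx5 were thus both low in HSC-like cells, but peaked in different clusters. Mms19 had its highest level of the 7 clusters in the HSC-like one, at 16.6 CPM (15.2 to 18.1) under vehicle and 13.7 CPM (12.4 to 15.1) under DFO. Its lowest level was in the megakaryocyte-like cluster, at 11.7 CPM (10.8 to 12.5) and 10 CPM (9.09 to 11). Those intervals overlap that of cluster 3 in both libraries. Under vehicle the HSC-like interval overlaps those of cluster 0 (13.6 to 15.5), the neutrophil-monocyte-like cluster (12.4 to 15.4) and cluster 6 (12.8 to 16.2). The DFO level in HSC-like cells was close to the 13.6 CPM of cluster 0, while the HSC-like and megakaryocyte-like levels were apart in both libraries.

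Iscu and Nfs1, scaffold and sulfur donor, shared a low point among the 7 deeper clusters in the megakaryocyte-like one. There Iscu lay at 74.8 CPM (72.7 to 76.9) under vehicle and 78.4 CPM (75.7 to 81.2) under DFO, and Nfs1 at 46.6 CPM (45 to 48.4) and 50.2 CPM (48.1 to 52.4). Outside cluster 7, Iscu was highest in the neutrophil-monocyte-like cluster at 92.1 and 91.6 CPM, and Nfs1 in cluster 3 at 59.2 and 60.7 CPM. In both libraries the intervals of these highest values overlap that of at least 1 other cluster. The spans of Iscu and Nfs1 were small, 0.30 and 0.34 in log2 in vehicle, and 18.7% and 25.7% of tested genes had smaller ones. Nubp1 was also lowest of the 7 in the megakaryocyte-like cluster, at 64.4 CPM (62.4 to 66.4) and 58 CPM (55.8 to 60.4), and highest in cluster 0, at 87.4 CPM (85.2 to 89.7) and 77.9 CPM (76 to 79.8). The intervals in cluster 0 overlap those of the neutrophil-monocyte-like cluster in both libraries. The megakaryocyte-like cells therefore combined the highest Glrx5 with the lowest Iscu, Nfs1 and Nubp1 values of the 7 clusters in both libraries, though for Iscu under DFO, and for Nfs1 in both, the interval overlaps that of at least 1 other cluster.

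The 2 carrier genes did not follow each other. Isca1 was highest of the 7 clusters in the megakaryocyte-like one, at 17.7 CPM (16.7 to 18.8) under vehicle and 16.5 CPM (15.3 to 17.8) under DFO. Those intervals overlap the intervals of the erythroid-like cluster in both libraries. Isca2 was highest in cluster 6, at 44.9 CPM (42 to 48) and 42.9 CPM (40 to 45.9), and lowest in cluster 3, at 29.4 CPM (27.4 to 31.5) and 28.9 CPM (27.3 to 30.7). The highest interval overlaps that of cluster 0 under vehicle, and the lowest those of the HSC-like cluster in both libraries. Ciao1 varied little between the 7 clusters, from 23.3 to 28.6 CPM under vehicle. In shallow cluster 7 it lay at 8.01 CPM (5.48 to 11.3) and 7.92 CPM (5.48 to 11.1), from 32 and 34 molecules. Nfs1, Nubp1 and Ciapin1 were also lowest in that cluster, at 30.8, 46.3 and 42.6 CPM under vehicle, while Iscu (98.4 CPM) and Isca1 (23.5 CPM) were highest there. The part of depth and mitochondrial share in those values was not tested.

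**Figure D3:**
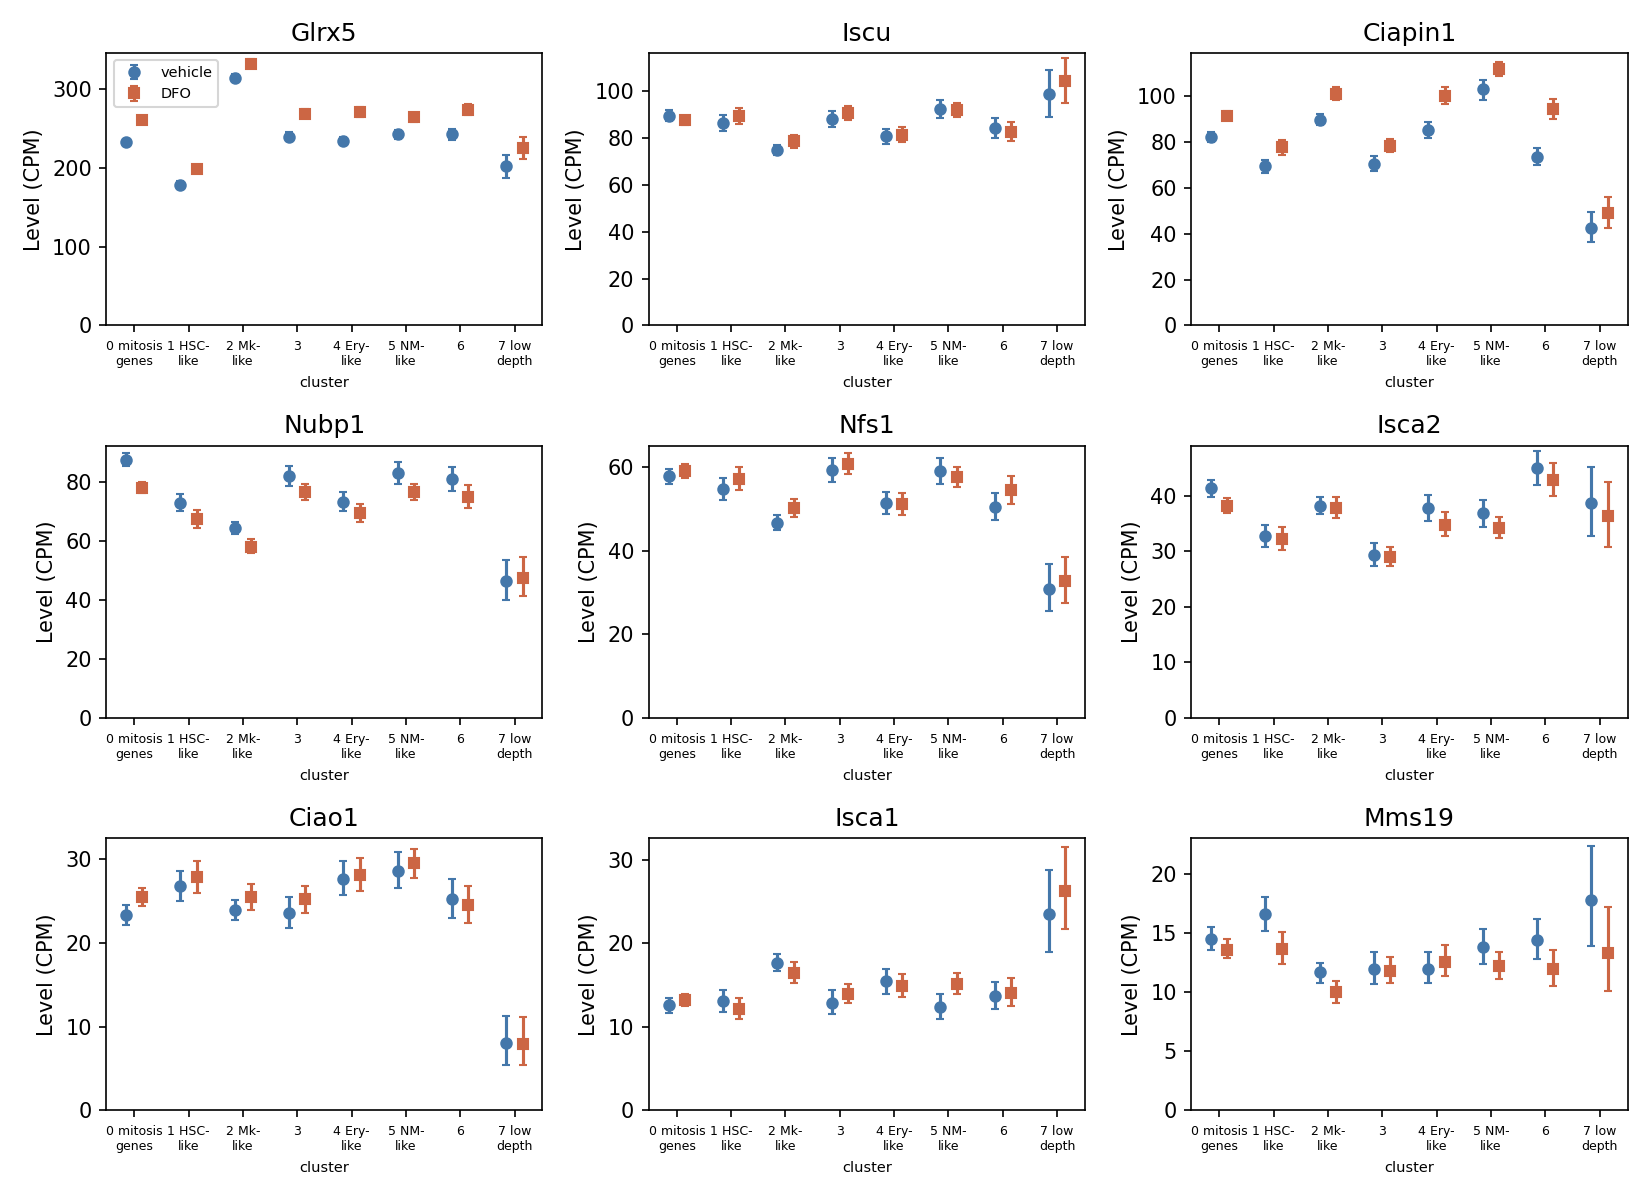
Level (CPM, axes from 0) of each member in the 8 clusters, vehicle as circles and DFO as squares, with exact 95% Poisson intervals; Mk, Ery and NM stand for megakaryocyte, erythroid and neutrophil-monocyte. In vehicle cells Glrx5 is at 179 CPM in the HSC-like and 315 CPM in the megakaryocyte-like cluster, and Ciao1 at 8.01 CPM in shallow cluster 7.

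Over the 14 cluster-by-library values outside cluster 7, the log2 levels of Iscu and Nfs1 had a Pearson correlation of 0.92, the highest of any pair. Those of Glrx5 and Mms19 had one of -0.82, the lowest of any pair. Isca1 and Isca2 had 0.18, Ciao1 and Mms19 0.13, and Glrx5 and Ciapin1 0.62. With cluster 7 included (16 values), Iscu and Nfs1 had -0.40 and Ciao1 and Mms19 -0.41, so the sign of both pairs rests on leaving it out. Glrx5 and Mms19 stayed at -0.82. These values share libraries and depth and are given as description. The genes whose pattern over the 16 values was most like the summed level of the 9 members, of 7476 genes at 10 CPM or more, were Alyref (0.978), Prpf31 (0.976), Bop1 (0.974), Lars (0.973) and Serbp1 (0.970). Without cluster 7 these had 0.982, 0.968, 0.965, 0.984 and 0.957, though the sum is weighted towards Glrx5.

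Within clusters, the directions seen over all cells recurred for some members. Ciapin1 was higher in DFO in 8 of 8 clusters, from 0.13 in the neutrophil-monocyte-like cluster to 0.35 in cluster 6, with levels of 73.7 CPM (69.9 to 77.6) under vehicle and 94.5 CPM (90.3 to 98.9) under DFO. A difference of 0.25 in either direction was reached by 13.1% of genes in cluster 6. Glrx5 was also higher in 8 of 8, from 0.079 in the megakaryocyte-like to 0.21 in the erythroid-like cluster, with levels of 235 CPM (229 to 240) under vehicle and 271 CPM (265 to 277) under DFO. Of all tested genes 16.4% were higher in all 8 clusters. The clusters come from the same 2 libraries and are not replicates. For both genes the counting intervals were apart in 7 of 8 clusters, the exception being cluster 7. In the order of their numbers, 27.2%, 16%, 31.3%, 15.9%, 26.9%, 15%, 21.7% and 5.89% of the genes tested in these clusters had intervals apart. Megakaryocyte-like cells had the highest Glrx5 level and were a smaller share of the DFO library. With equal cluster shares in both libraries the difference of Glrx5 was 0.14, against 0.11 over all cells. The part of cell composition in this was not tested, and the shares depend on genes that differ between the libraries.

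Isca2 was lower in DFO in 8 of 8 clusters, from -0.12 to -0.014, as were 8.88% of tested genes, with intervals apart only in cluster 0. Nubp1 was lower in 7 of 8, which held for 18% of tested genes in at least 7, with the lowest value of -0.16 in cluster 0. Mms19 was lower in 7 of 8, and it reached -0.26 in the HSC-like cluster, with 519 vehicle and 399 DFO molecules behind that value and intervals apart. Of the genes tested in that cluster 4.63% reached 0.25 in either direction. Its -0.25 in cluster 6 and -0.40 in cluster 7 had overlapping intervals, the latter resting on 71 and 57 molecules in a cluster where 26.6% of genes reached 0.25. The interval of the log2 ratio in cluster 6 was -0.52 to -0.013. In the erythroid-like cluster Mms19 stood at 0.066, also with overlapping intervals.

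Isca1 was higher in 5 clusters and lower in 3. In the neutrophil-monocyte-like cluster it lay at 12.4 CPM (11 to 13.9) under vehicle and 15.2 CPM (14 to 16.5) under DFO, a difference of 0.28, the only one of this gene with intervals apart. There 4.33% of genes reached 0.25 in either direction. Iscu (5 higher, 3 lower), Nfs1 (6 and 2) and Ciao1 (6 and 2) had overlapping intervals in all 8 clusters. Such intervals can overlap while the interval of the log2 ratio leaves out 0. That held for Iscu (0.0038 to 0.13) and Nfs1 (0.025 to 0.19) in the megakaryocyte-like cluster, and for Ciao1 (0.032 to 0.22) in cluster 0. Whether any of these differences varied between clusters was not tested. When the cells were clustered without 598 genes that differ between the libraries, Ciapin1 and Glrx5 were higher in DFO in 9 of 9 clusters with at least 50 cells of each library, and Isca2 was lower in 7 of 9. The shares of all genes with such counts are not given for this clustering, so these counts have no background.

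**Figure D4:**
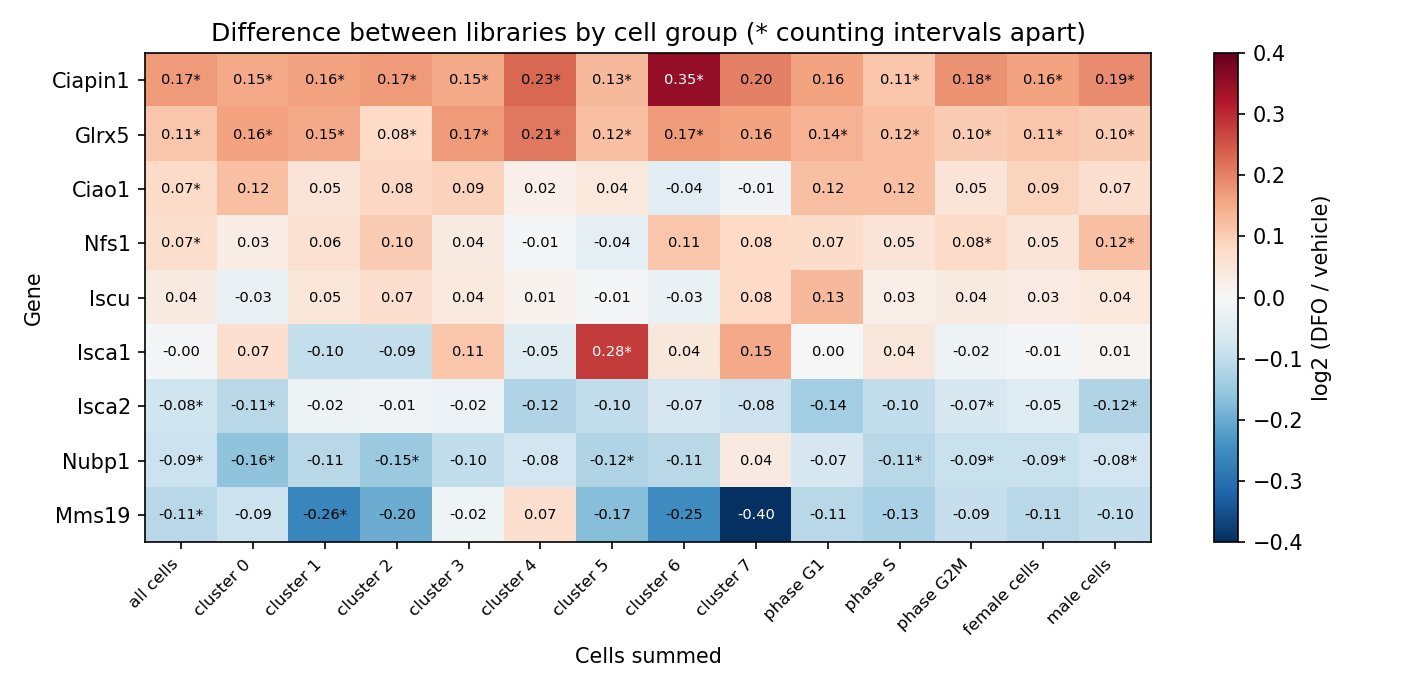
log2 (DFO / vehicle) of each member (rows) over all cells, within each cluster, within cell cycle phases and within cells of either sex (columns), red for higher and blue for lower in DFO, with an asterisk where the counting intervals of the libraries are apart. Ciapin1 and Glrx5 are above 0 in every column, and the deepest blue, -0.40 for Mms19 in cluster 7, carries no asterisk.

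Levels were also compared by cell cycle phase, a range of a score computed from S phase and G2/M genes in cells thinned to 10000 molecules. G1 was called in 8.89% of vehicle and 5.64% of DFO cells, S in 25.7% and 27.7%, and G2/M in 61.4% and 62.2%. Ciapin1 lay at 57.2 CPM (53.4 to 61.2) in G1 and 88.1 CPM (85.8 to 90.5) in S phase cells of the vehicle library, and at 64.1 CPM (59.3 to 69.3) and 95.4 CPM (93.2 to 97.7) under DFO. Glrx5 in vehicle cells lay at 176 CPM (169 to 183) in G1 and 260 CPM (257 to 262) in G2/M, and its DFO levels were 195 CPM (186 to 204) and 277 CPM (275 to 280). Nubp1 was lower in G1 too, at 61.1 CPM (57.1 to 65.2) against 76.1 CPM (73.9 to 78.4) in S phase in vehicle. Nfs1 did not share this, at 54.5 CPM (50.8 to 58.5) in G1, 53.4 CPM (51.6 to 55.3) in S and 53.4 CPM (52.3 to 54.4) in G2/M. Of the HSC-like cluster 33.5% was called G1 and of the megakaryocyte-like cluster 2.03%, so phase and cluster overlap, and their parts in these levels were not tested. Ciapin1 and Glrx5 were higher in DFO in all 3 phases, by 0.16 and 0.14 in G1, 0.11 and 0.12 in S, and 0.18 and 0.10 in G2/M. The intervals of Ciapin1 in G1 overlapped, and the others were apart. The share of all genes higher in all 3 phases is not given here. Intervals were apart for 12% of tested genes in G1, 26.9% in S and 49.5% in G2/M, and for 43.2% in female and 35.3% in male cells, told apart by sex-linked transcripts.

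The last question was how the transcripts are spread over single cells. Cells were thinned to 10000 molecules each, which left out 351 vehicle and 433 DFO cells that were shallower. At that depth Glrx5 was seen in 88.5% (87.8% to 89.2%, exact Clopper-Pearson) of vehicle cells, against 91.3% (90.7% to 91.9%) of those with DFO, and Ciapin1 in 54.3% (53.2% to 55.4%) and 58.9% (57.9% to 59.9%). Mms19 was seen in 12.7% (12% to 13.4%) and 12.1% (11.4% to 12.7%), and Isca1 in 13.6% (12.9% to 14.3%) and 13.5% (12.8% to 14.2%). Without thinning these shares were 97% and 97.4% for Glrx5, 82.5% and 85.6% for Ciapin1, 32.3% and 29.2% for Mms19, and 33.5% and 32.6% for Isca1. No cell type lacking these genes was at hand as a background for free RNA, so the shares are not read as shares of expressing cells.

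A median of 4 of the 9 members was seen per thinned cell in both libraries, with a mean of 3.72 in vehicle and 3.8 in DFO. At least 5 were seen in 27.1% (26.1% to 28%) of vehicle cells, against 29.2% (28.3% to 30.1%) of those with DFO. All 9 were seen in 2 vehicle cells and 1 DFO cell. The variance over the mean, which is 1 for random sampling of molecules, was 1.19 for Glrx5 in vehicle and 1.13 in DFO, above 89.8% and 88% of tested genes. Glrx5 also stood above 93.3% of tested genes in level. The genes were not matched for level, so its rank is not read as unusual variation between cells. The other members lay between 0.985 and 1.04, around the median of tested genes, 1.03. These members averaged less than 1 molecule per thinned cell, and at such means the measure says little about how a gene varies between cells. Correlations between pairs of members over cells lay between -0.021 and 0.049 in vehicle, and in counts this sparse they are no finding.

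**Figure D5:**
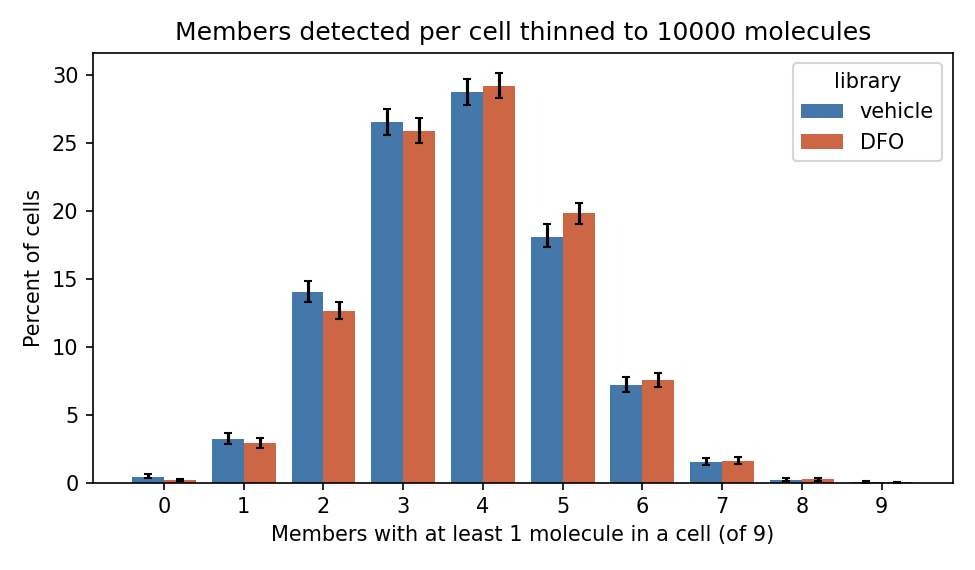
Percent of cells (axis from 0) by the number of members with at least 1 molecule, after thinning each cell to 10000 molecules, for vehicle and DFO, with exact 95% Clopper-Pearson intervals. Both libraries peak at 4 members, with 28.7% of vehicle and 29.2% of DFO cells.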

How the data were processed

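Single-cell transcripts of 2 libraries, vehicle and DFO, were analysed. The authors deposited natural log values per gene and cell, and the values show that each is the logarithm of 1 + 27408 times a gene's share of its cell's molecules. FastQC 0.11.9, Trim Galore 0.6.5, Cell Ranger 3.0.2 and mm10 are named per the submitters' processing notes, while filters on cells and genes are not described by the sources at hand. Inverting this gave whole molecules (tolerance 0.05) for all nonzero values, and they were summed per library and scaled to CPM (Python 3.11.15, pandas 2.3.3, numpy 2.4.6; intervals from scipy 1.17.1). With 1 library per group no test was run and no count model was used. All deposited cells were used, and no doublet caller was run. Clustering used scanpy 1.11.5 and leidenalg 0.10.2 (2000 variable genes without cell cycle, mitochondrially encoded, ribosomal protein, sex-linked and pathway genes, 30 components, 15 neighbours, resolution 0.5). A cluster was named for the type that led its top 10 genes and had the highest mean fold, given 3 or more detected markers. Cluster 6, with 1 erythroid marker beside mitosis and mast cell genes in its top 10, met this rule but stayed unnamed. Cluster 1 was named with 1 HSC marker in its top 10. Sex was read from Xist and 4 Y-linked genes: female cells had at least 5 Xist molecules with no Y-linked one, male cells at least 2 Y-linked molecules and at most 1 of Xist. Gene copies were searched with blastn 2.17.0. Named genes were the members, Tfrc, the 3 highest and 3 lowest of each pathway list, the 5 most alike in pattern and leading genes of clusters, a few of which are not reported here; the neighbouring genes were added after values were seen. Members and lists were chosen with earlier results of these data known. Recovery, differences, intervals and thinning were tested on simulated data. The alternatives covered the way cells are combined, scaling, pseudocount, cell filters, likely doublets, depth, cluster shares, sex of the cells, expression minimum and clustering.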

Additional observations from a re-analysis of the deposited data

How the results depend on the processing

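No paired analysis was possible because each group has 1 library, and for the same reason no library could be left out. Over 12 alternatives per member, 104 of 108 values kept their sign, and the 4 that did not all belong to Isca1 (-0.023 to 0.027). The counts include the changes of pseudocount to 0.1 and 10, which cannot change a sign. No member reached 0.25 under any of the 12 alternatives. Ciapin1 ranged from 0.15 to 0.19, Glrx5 from 0.09 to 0.14, Mms19 from -0.15 to -0.068, Nubp1 from -0.12 to -0.057 and Isca2 from -0.12 to -0.028. Over a total without mitochondrially encoded and ribosomal protein genes, the mitochondrial sum differed by 0.052 and the cytosolic sum by 0.026, and with median-of-ratios scaling by 0.053 and 0.026; that scaling shifts every gene by -0.02. With thinned cells the mitochondrial sum differed by 0.087, and the cause was not tested. Chosen after seeing the data were the sums without Glrx5 (0.021) and without Ciapin1 (-0.054, a reversal), and leaving out cluster 7, which moved neither sum. Of the 4 cytosolic members, Ciapin1 has the largest positive difference (0.17), while Nubp1 and Mms19 are below 0. The log2 ratio of Glrx5 between the cluster highest in Pf4 and that highest in Procr was 0.81 in vehicle cells and 0.49 at resolution 0.25, which gave 4 clusters. Ciapin1 was seen in 58.9% of thinned and 85.6% of unthinned DFO cells. In shallow cluster 7 the ratio interval of Glrx5 (0.021 to 0.29) lay above 0, and those of the other members included 0.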

Other observations

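The pooled marrow held cells of both sexes, which allows each difference to be read in separate animals within the same 2 libraries. Female cells numbered 4751 in vehicle and 5251 in DFO, and male cells 2767 and 3266. Female cells held Ciapin1 at 83 CPM (81.5 to 84.5) under vehicle and 93.1 CPM (91.5 to 94.6) under DFO, and male cells at 82.1 CPM (80.2 to 84.1) and 93.9 CPM (92 to 95.9). For Glrx5 the female values were 249 CPM (246 to 251) and 269 CPM (266 to 271), and the male values 248 CPM (245 to 252) and 266 CPM (263 to 269). Nubp1 was lower in DFO in both, at -0.088 and -0.076. The levels of the other members in vehicle were also close between the sexes, such as 84.2 and 83.8 CPM for Iscu. The difference of Isca2 was -0.047 for female and -0.12 for male cells, that of Nfs1 0.052 and 0.12, and whether these differ between the sexes was not tested. The cells of both sexes shared culture, droplets and library, so these values are no replicates.

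The genes that share a start region with a member did not all share its difference. Ciapin1 was higher in DFO by 0.17, while Coq9, 37 bases away, lay at 22.8 CPM under vehicle and 22.6 CPM under DFO, a difference of -0.016. Mms19 stood at -0.11 and its neighbour Ubtd1 at 0.069, and Ciao1 at 0.075 and its neighbour Tmem127 at -0.048. Iscu (0.037) and Sart3 (0.13), Nfs1 (0.07) and Romo1 (0.13), and Isca2 (-0.079) and Npc2 (-0.04) had differences of the same sign within each pair.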
